A study of Mus musculus with 258 samples.

Results

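Rest, Ldha, Slc16a1, Hk1, Igfbp4, Oat, Cxcl12, Acot7 and Pdgfra are genes that are known to be kept low in mature beta cells, and they are followed here from pancreatic progenitors to nascent beta cells. They were taken by symbol, as 9 of the 40824 genes in the count tables, and all 9 passed the filter on low counts, which left 15684 genes to test. The study asked how chromatin marks and the histone demethylase Jmjd3, the product of Kdm6b, bear on endocrine fate in the embryonic mouse pancreas. Bulk RNA was sequenced from Ngn3-low and Ngn3-high cells of the dorsal pancreas of Ngn3-GFP embryos at embryonic day E13.5, and from Ins1-RFP+ cells at E17.5, with 2 libraries per group. Single cells came from the E13.5 dorsal pancreas: 49 WT Ngn3-low, 59 WT Ngn3-high, 69 Jmjd3-deleted Ngn3-low and 44 Jmjd3-deleted Ngn3-high cells. Jmjd3-deleted cells were Pdx1-Cre; Jmjd3 fl/fl, in which Pdx1 regulatory sequence drives the recombinase in pancreatic progenitors. No Cre is named for the WT cells, so Cre and the deletion cannot be told apart. The label "mature" is not tested here, because the Ins1-RFP+ cells are embryonic and are described as nascent beta cells. Day and reporter change together between Ngn3-high and Ins1-RFP+ cells and cannot be told apart.

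Beta cells sense glucose by burning it in mitochondria, and they hold back a set of widely expressed genes, often called disallowed genes, whose activity would disturb that sensing. Lactate dehydrogenase A (Ldha) and the monocarboxylate transporter MCT1 (Slc16a1) would let pyruvate and lactate bypass or falsely trigger the pathway, and hexokinase 1 (Hk1) would phosphorylate glucose even at low concentrations. REST is a zinc finger repressor that silences neuronal genes outside the nervous system, and its loss lets endocrine cells use many of those genes.

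Ldha and Slc16a1 act at neighbouring steps of lactate metabolism, and the stretches just upstream of an annotated start are shown because these members alone among those matched held the letters ACGTG there. The capitals mark every match to ACGTG on either strand, with the palindromic E-box CACGTG that contains it, and to TGACGTCA. Sequences and coordinates are from RefSeq, build GRCm38.p6.

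Ldha, chr7:46845554-46845803, plus strand: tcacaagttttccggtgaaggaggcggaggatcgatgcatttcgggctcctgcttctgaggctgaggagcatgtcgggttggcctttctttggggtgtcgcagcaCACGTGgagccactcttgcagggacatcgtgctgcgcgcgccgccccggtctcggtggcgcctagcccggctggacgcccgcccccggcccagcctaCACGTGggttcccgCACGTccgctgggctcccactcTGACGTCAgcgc

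Slc16a1, chr3:104638414-104638663, plus strand: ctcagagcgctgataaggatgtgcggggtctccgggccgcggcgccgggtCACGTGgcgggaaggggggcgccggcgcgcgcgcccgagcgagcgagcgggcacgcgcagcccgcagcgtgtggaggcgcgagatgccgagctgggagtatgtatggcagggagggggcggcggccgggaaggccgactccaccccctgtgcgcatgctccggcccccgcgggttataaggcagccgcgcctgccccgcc

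Each stretch is the 250 bases before a start. The Ldha stretch held 5 matches to ACGTG and the Slc16a1 stretch 2, counted on both strands, so that each CACGTG counts on both. These letters are in 16.6% of 32851 promoters of that length, CACGTG is in 6.02%, and TGACGTCA, held by Ldha alone among the members, is in 1.55%. Promoters were matched for 8 of the 9 genes, and none was printed for Rest. A match is a description of letters and not a binding site. A second annotated Ldha start, further downstream, held no match.

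Libraries were deep and the marker lists followed the gates, though these lists include Neurog3 and Ins1, the genes behind the reporters. Part of that match was therefore set by the sort. Bulk libraries held 11957415 to 17760214 reads in genes and single cells 380478 to 1949839, with a median of 708409. Replicates are 2 libraries whose labels name no animal or litter, so p-values measure the spread between these libraries, which may be technical. A summed list of 7 endocrine progenitor genes stood at 326 to 369 CPM, read counts scaled to each library's total in genes, in Ngn3-low and at 11873 to 13284 CPM in Ngn3-high libraries, and a list of 7 beta cell genes reached 68071 to 99872 CPM in Ins1-RFP+ libraries. Among single WT cells, Neurog3 stood at 10 CPM or more in 27 of 49 Ngn3-low and 49 of 59 Ngn3-high cells. Kdm6b stood lower in Jmjd3-deleted cells, at 55.5 against 131 CPM in Ngn3-low and at 107 against 265 CPM in Ngn3-high cells. Bulk Ngn3-low libraries also held RNA of other cell types: 11 macrophage and white blood cell genes summed to 2696 to 3226 CPM there and to 8.95 to 16.5 CPM in Ngn3-high. Ins1-RFP+ library 2 held 21872 CPM of 7 tip and acinar genes against 1280.0 CPM in library 1.

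All 9 genes fell from bulk Ngn3-low to Ngn3-high cells (edgeR quasi-likelihood test, Benjamini-Hochberg adjusted p under 0.05 over all genes). The background in that direction was 30.3% of genes tested, and 0 members rose, against 27.8% of genes. The median log2 fold change of the members was -3.57, beside -0.01 for all genes. From Ngn3-high to Ins1-RFP+ cells 5 members rose (background 26.2%) and 0 fell (25.1%). No member was lower there at an unadjusted p under 0.05 (the smallest was 0.0782, for Acot7) or by DESeq2. Those counts depended on single libraries. Without Ins1-RFP+ library 2 the log2 fold changes of Acot7, Igfbp4 and Ldha were -1.03, -1.61 and -1.02. The rises of Slc16a1, Hk1, Cxcl12 and Pdgfra shrank to 0.73, 1.01, 0.41 and 1.08, and Oat stayed at 2.65 or more in every omission. Without Ngn3-high library 2, Slc16a1 and Hk1 were at 0.78 and 1.03. Ins1-RFP+ library 2 held more of the acinar, mesenchyme (895 against 362 CPM) and macrophage lists (132 against 69.7 CPM) than library 1, and less of the mesothelium list. Their part in the result was not tested. Over the whole span 7 were lower (35.9%) and 1, Oat, was higher (30.6%) in Ins1-RFP+ cells. The same percentages are the background for the counts of other gene lists in these bulk comparisons. Oat returned above its starting level, and the bulk falls of Hk1 and Pdgfra had little or no counterpart in single cells. In bulk, fewer cells of a type and less RNA per cell cannot be told apart.

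**Figure D1:**
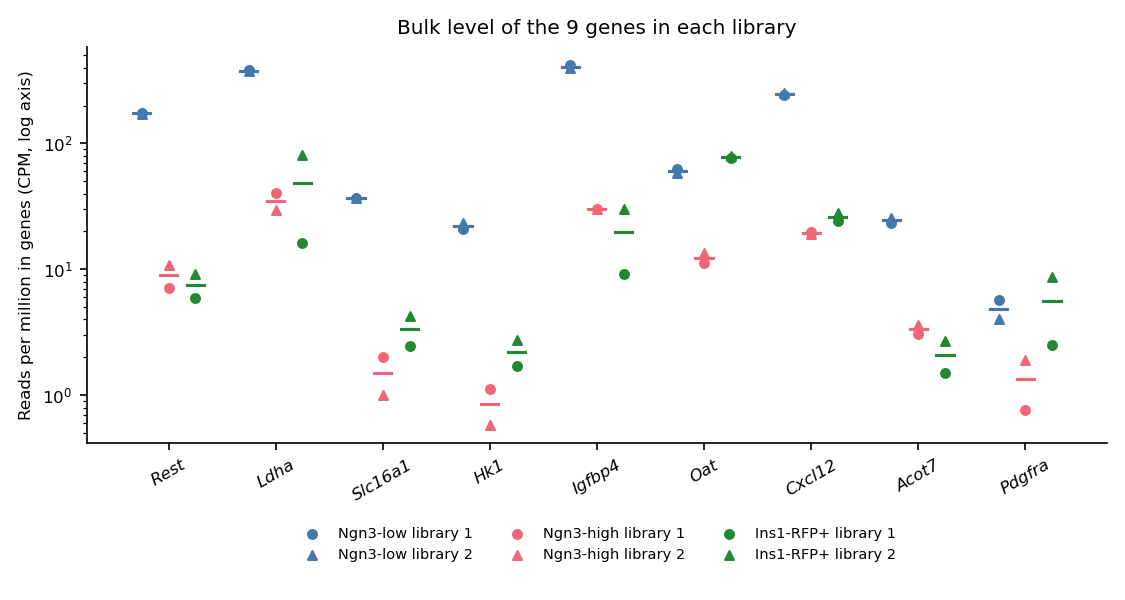
Level of each gene in the 6 bulk libraries, in CPM on a log axis; circles are library 1, triangles library 2 and lines the group means. Every Ngn3-high value lies below both Ngn3-low values of its gene, Oat returns to 76.0 and 80.1 CPM in Ins1-RFP+ cells, and the Ldha, Igfbp4 and Pdgfra values of the 2 Ins1-RFP+ libraries lie far apart.

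**Figure D2:**
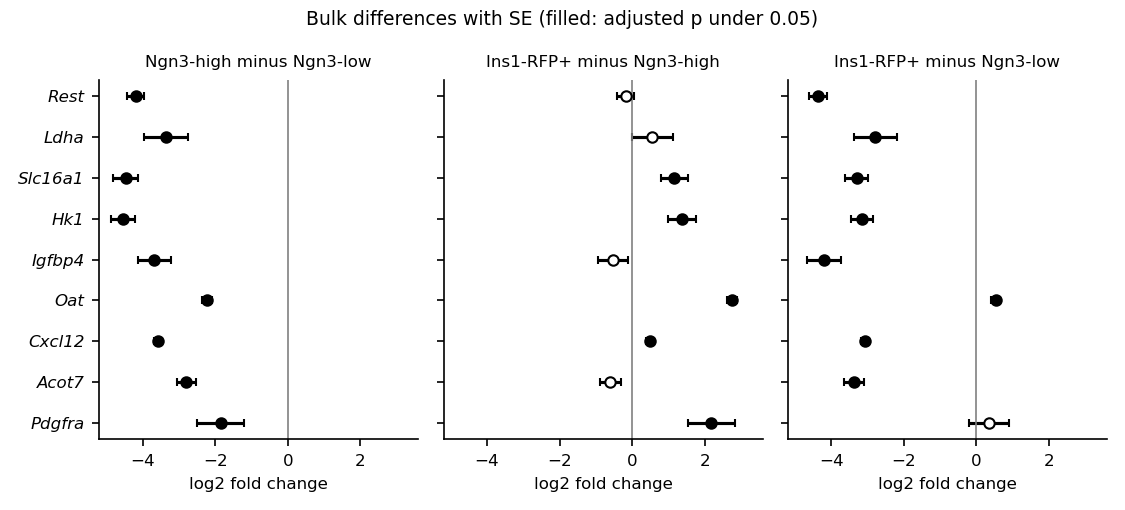
Log2 fold change with its standard error (SE) for each gene in the 3 bulk comparisons; filled points have an adjusted p under 0.05 and open points do not. In the first comparison all 9 points are filled and below 0, and in the second the points lie on both sides of 0.

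Rest, the repressor (chromosome 5, 77265494 to 77286432, GRCm38.p6, as for all coordinates), read 176 and 172 CPM in the Ngn3-low libraries, 7.18 and 10.9 CPM in the Ngn3-high libraries and 5.90 and 9.17 CPM in the Ins1-RFP+ libraries. Both Ngn3-low values lay far above the other 4, and the ranges of the later groups overlapped. The fall from Ngn3-low to Ngn3-high was -4.20 on the log2 scale (SE 0.248, edgeR adjusted p = 3.06e-06), an 18.3-fold difference. Ngn3-high and Ins1-RFP+ cells did not differ beyond their spread (log2 fold change -0.17, SE 0.237, edgeR adjusted p = 0.565).

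Rest was also lower cell by cell. It stood at 10 CPM or more in 46 of 49 WT Ngn3-low cells (93.9%, exact binomial 95% interval 83.1 to 98.7%) and in 4 of 59 WT Ngn3-high cells (6.78%, 1.88 to 16.5%). In Jmjd3-deleted cells the counts were 68 of 69 (98.6%) and 1 of 44 (2.27%). The summed level went from 159 CPM (exact Poisson 95% interval 155 to 163) to 5.47 CPM (4.795 to 6.21) in WT cells and from 147 to 0.465 CPM in deleted cells. No animal or culture is named for the single cells, and the meaning of the numbers in their titles is not given. Each group is therefore taken as 1 sample and carries no test, and these intervals cover counting error only. Most of the WT Ngn3-high reads came from 1 cell, which held 71.0% of them at 200 CPM. That cell also held 3207 CPM of Neurog3, 2773 CPM of Cxcl12 and 53.1 CPM of the trunk factor Sox9, with no read of Neurod1, a factor that acts after Neurog3. The others were a cell at 46.6 CPM of Rest with 141 CPM of Neurod1, one at 34.2 CPM with 1335 CPM of Neurod1 and 520 CPM of the granule gene Chga, and one at 14.7 CPM with 739 CPM of Neurod1. Rest was thus read both beside a low and beside a high level of Neurod1. The 1 deleted Ngn3-high cell stood at 12.97 CPM of Rest with no Neurod1 read and held 6 of the 9 genes at 10 CPM or more.

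Genes known to carry REST sites moved the other way. Of 24 tested neuronal and endocrine genes with such sites, 22 rose and 1 (Stmn2) fell from Ngn3-low to Ngn3-high, with a median log2 fold change of 4.26 beside -0.01 for all genes. The synaptic vesicle protein gene Syp rose from 2.96 ± 0.831 to 145 ± 6.35 CPM (mean ± SD, n = 2; log2 fold change 5.67), Celsr3 from 5.27 ± 0.527 to 206 ± 41.003 CPM (5.38) and Disp2 from 10.4 ± 0.548 to 405 ± 19.3 CPM (5.37). In the step to Ins1-RFP+ cells, where Rest passed no test, 15 rose and 2 fell, among them Syt4 (3.33), Chga (2.24) and the granin Scg3 (2.16). The list was chosen with results of these data known. A single WT Ngn3-low cell held a median of 1 of the 25 listed genes at 10 CPM or more (range 0 to 3) and a WT Ngn3-high cell a median of 10 (0 to 15), with medians of 1 and 9 in deleted cells. REST's partner genes did not fall with it: of 10 tested, 8 rose and 0 fell in the first step, led by Rcor2 (139 ± 9.08 to 349 ± 22.7 CPM, log2 fold change 1.41), Kdm1a (1.15) and Sin3b (0.83). In the step to Ins1-RFP+ cells 7 of the 10 fell, with Rcor2 at 65.9 ± 4.32 CPM (log2 fold change -2.32) and Hdac1 at 75.0 ± 6.45 CPM (-1.34).

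Ldha (chromosome 7, 46842274 to 46855627), which turns pyruvate into lactate, read 382 and 373 CPM in Ngn3-low libraries, 40.4 and 29.4 CPM in Ngn3-high and 16.1 and 81.6 CPM in Ins1-RFP+ libraries. The Ngn3-high values lay between the 2 Ins1-RFP+ values, and all 4 lay below Ngn3-low. Ldha fell in the first step (log2 fold change -3.35, SE 0.611, edgeR adjusted p = 0.00177) but passed no test in the second (0.55, SE 0.568, edgeR adjusted p = 0.443). That second value rests on Ins1-RFP+ library 2: without it Ldha was lower than in Ngn3-high (-1.02, edgeR adjusted p = 0.00271), and without Ins1-RFP+ library 1 it was higher (1.29). Its partner in the lactate dehydrogenase tetramer, Ldhb, fell from 27.3 ± 0.130 to 5.18 ± 0.363 CPM in the first step (log2 fold change -2.32). By the authors' deposited table, which is scaled to length and so allows genes to be compared, Ldha had the highest level of the 9 genes in Ngn3-low and Ngn3-high cells, at 199.6 and 20.3 RPKM, counts scaled to gene length and library total, and Oat was highest in Ins1-RFP+ cells, at 38.96 RPKM against 28.1 for Ldha.

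In single cells Ldha was lower in Ngn3-high cells both in level and in the share of cells, but many still held it. It stood at 10 CPM or more in 47 of 49 WT Ngn3-low cells (95.9%) and 25 of 59 WT Ngn3-high cells (42.4%, 29.6 to 55.9%), and in 68 of 69 and 13 of 44 deleted cells (29.5%, 16.8 to 45.2%). The summed level went from 566 to 69.6 CPM in WT and from 684 to 46.5 CPM in deleted cells. The median WT cell went from 400 CPM (range 0 to 2619) to 2.07 CPM (0 to 800), and the ranges of the gates overlapped.

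Slc16a1 (chromosome 3, 104638664 to 104658462) read 36.6 and 36.97 CPM in Ngn3-low libraries, 2.02 and 1.00 CPM in Ngn3-high and 2.45 and 4.25 CPM in Ins1-RFP+ libraries. The groups did not overlap, with Ngn3-low highest and Ngn3-high lowest. It fell in the first step (log2 fold change -4.47, SE 0.343, edgeR adjusted p = 1.24e-05) and rose in the second (1.16, SE 0.365, edgeR adjusted p = 0.0283). The second call was lost without Ins1-RFP+ library 2 (0.73), without Ngn3-high library 2 (0.78) and in a fit of those 2 groups alone (1.18, edgeR adjusted p = 0.0580). Slc16a1 was read at 10 CPM or more in a minority of single Ngn3-low cells: 15 of 49 WT (30.6%, 18.3 to 45.4%) and 28 of 69 deleted ones (40.6%, 28.9 to 53.1%). Whether the other cells lacked it or its reads were missed cannot be told apart. No WT Ngn3-high cell did (0 of 59, which allows a share of up to 5.08% by 3 counts of the total and 6.06% as the exact binomial upper bound), with 5 reads in all, and 3 of 44 deleted Ngn3-high cells did (6.82%).

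Hk1 (chromosome 10, 62268855 to 62379920) read 21.1 and 23.2 CPM in bulk Ngn3-low libraries, 1.13 and 0.585 CPM in Ngn3-high and 1.70 and 2.76 CPM in Ins1-RFP+ libraries. Its bulk fall (log2 fold change -4.54, SE 0.340, edgeR adjusted p = 1.09e-05) was within its standard error of that of Slc16a1, and the groups did not overlap. Hk1 rose in the second step (log2 fold change 1.38, SE 0.385, edgeR adjusted p = 0.0174), a call lost without Ins1-RFP+ library 2 (1.01) or Ngn3-high library 2 (1.03). Single Ngn3-low cells gave almost no Hk1. In WT cells it stood at 1.21 CPM, from 39 reads in 1 cell of 49 (2.04% of cells at 10 CPM or more, 0.0517 to 10.9%), and in deleted cells at 1.90 CPM, from 99 reads in 5 cells of 69. Bulk Ngn3-low cells thus read 18.4 times the level of WT single cells for Hk1, while the same ratio was 1.10 for Rest, 0.667 for Ldha and 1.41 for Slc16a1. WT Ngn3-high cells held 2 reads of Hk1 in all (log2 ratio of CPM with 1 CPM added, -1.08, counting interval -1.40 to -0.67) and deleted Ngn3-high cells held none, at least 20.4-fold lower than deleted Ngn3-low cells against a floor of 3 counts over the group. Each ratio rests on cells of 1 title number, a number in the cell names whose meaning the labels do not give: without number 5 the WT ratio was 0.08, and without number 2 the deleted ratio was 0.

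Other glucose and lactate genes gave the surroundings of this change. Of 18 glycolysis genes, 12 fell in the first step, and Eno2 and Pfkm were among the genes that rose, with a median log2 fold change of -0.70. Hk2 fell from 121 ± 2.20 to 14.7 ± 0.540 CPM in bulk and was at 41.7 and 8.85 CPM in single WT cells, with 31 of 49 Ngn3-low cells at 10 CPM or more against 1 of 49 for Hk1. Hk3, a hexokinase of blood cells, had the largest fall of the list (53.5 ± 2.58 to 0.0593 ± 0.0839 CPM, log2 fold change -9.35), and stood at 0.0309 CPM in single WT Ngn3-low cells. In the step to Ins1-RFP+ cells the glycolysis enzymes Gapdh (-1.83) and Pgk1 (-1.61) fell and Eno2 rose (2.08), with 7 of 18 higher and 4 lower.

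Of 9 tested monocarboxylate and glucose transport genes, 5 fell and 3 rose in the first step. The lactate transporter Slc16a7 fell (-5.33), as did the glucose transporters Slc2a3 (-2.57) and Slc2a2 (-2.31). Slc2a2, the main glucose transporter of mouse beta cells, then rose from 23.3 ± 7.52 to 644 ± 152 CPM (log2 fold change 4.88, edgeR adjusted p = 8.34e-06). Basigin (Bsg), the chaperone that carries MCT1 to the membrane, rose in bulk (395 ± 21.02 to 496 ± 15.7 CPM, log2 fold change 0.41), as did the mitochondrial pyruvate carrier Mpc1 (26.9 ± 0.903 to 66.5 ± 2.21 CPM, 1.39). Single cells did not show the Bsg rise, at 893 CPM in WT Ngn3-low and 794 CPM in WT Ngn3-high cells, and at 846 and 829 CPM in deleted cells. Mpc1 was higher in single Ngn3-high cells too, at 158 against 20.6 CPM in WT and 228 against 27.8 CPM in deleted cells. Mpc1 fell again in the second step (-1.87). Of 17 genes of mitochondrial shuttles and pyruvate entry, 9 rose and 4 fell in the first bulk step, led by Pdk3 (1.75), Pdk2 (1.67) and Gpd1 (1.56). Single cells did not show this as a set. Of 15 at 5 CPM or more, 3 were at least 2-fold higher and 2 lower in WT Ngn3-high cells (background 14% and 19%). In deleted cells 2 of 15 were higher and 3 lower (15.3% and 18.7%), with a median log2 ratio of -0.15. Gpd1 stood at only 0.155 and 0.597 CPM in single WT Ngn3-low and Ngn3-high cells. Pyruvate carboxylase Pcx rose in the second step, from 15.97 ± 1.19 to 135 ± 0.661 CPM (3.17), with Gpd1 (3.12), while Pdk3 fell (-2.67).

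Igfbp4 (chromosome 11, 99040005 to 99052655), a secreted protein that binds insulin-like growth factors, read 419.6 and 396 CPM in Ngn3-low libraries, 30.01 and 30.3 CPM in Ngn3-high and 9.23 and 30.4 CPM in Ins1-RFP+ libraries. Ngn3-low lay above all the rest, and the Ngn3-high values fell between those of the 2 Ins1-RFP+ libraries. The first step was a fall of 3.68 on the log2 scale (SE 0.448, edgeR adjusted p = 0.000179) and the second did not pass (-0.53, SE 0.417, edgeR adjusted p = 0.316). Without Ins1-RFP+ library 2 it passed as a fall (-1.61, edgeR adjusted p = 3.67e-05). Every single Ngn3-low cell held Igfbp4 at 10 CPM or more, 49 of 49 WT and 69 of 69 deleted cells. Among Ngn3-high cells 28 of 59 WT (47.5%, 34.3 to 60.9%) and 22 of 44 deleted cells (50%, 34.6 to 65.4%) still did, and the summed level went from 243 to 48.8 CPM and from 276 to 61.3 CPM. Of 12 tested genes of the insulin-like growth factor axis, 6 fell and 2 rose in the first step. Igf1 fell by 5.13 and Igfbp5 by 2.18 on the log2 scale (593 ± 63.5 to 124 ± 7.09 CPM for Igfbp5). In the second step Igfbp2 fell (-4.52) and Igfbp7 rose (4.07). Igf1 read 87.1 CPM in bulk Ngn3-low and 4.02 CPM in single WT Ngn3-low cells.

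Cxcl12 (chromosome 6, 117168535 to 117181368), a chemokine that attracts cells bearing its receptor Cxcr4, read 241 and 249.8 CPM in Ngn3-low libraries, 19.8 and 19.1 CPM in Ngn3-high and 24.2 and 28.04 CPM in Ins1-RFP+ libraries. The groups did not overlap. Cxcl12 fell in the first step (log2 fold change -3.57, SE 0.119, edgeR adjusted p = 3.66e-07), the change with the smallest standard error of the 9, and rose in the second (0.51, SE 0.111, edgeR adjusted p = 0.00584). Without Ins1-RFP+ library 2 that rise was 0.41 and did not pass. In single cells 34 of 49 WT Ngn3-low (69.4%) and 7 of 59 WT Ngn3-high cells (11.9%) held 10 CPM or more, and 43 of 69 and 3 of 44 deleted cells did. The summed WT level went from 298 to 82.5 CPM, but 65.4% of the Ngn3-high reads were in the same cell that held most of the Rest reads. Without that cell the log2 ratio of the WT gates was -3.31 in place of -1.84, near the bulk value, and that of Rest was -5.93 in place of -4.63. This leaving out was chosen after seeing the data.

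Pdgfra (chromosome 5, 75151322 to 75198206), a growth factor receptor best known from mesenchyme, read 5.69 and 4.01 CPM in Ngn3-low libraries, 0.771 and 1.92 CPM in Ngn3-high and 2.51 and 8.72 CPM in Ins1-RFP+ libraries. The Ins1-RFP+ values spanned those of Ngn3-low. It fell in the first step (log2 fold change -1.84, SE 0.648, edgeR adjusted p = 0.0384), a call lost without any of 3 libraries: Ngn3-low library 1 (-1.52), Ngn3-high library 1 (-1.29) or Ngn3-high library 2 (-2.55). It rose in the second step (2.18, SE 0.645, edgeR adjusted p = 0.0224), a call lost without Ins1-RFP+ library 2 (1.08) or Ngn3-high library 1 (1.62). In single cells Pdgfra was at or near 0 in every group: 4 reads in 1 WT Ngn3-low cell, 2 reads in 1 deleted Ngn3-low cell and none in either Ngn3-high group. No cell of 221 reached 10 CPM, and no fold was computed. Bulk Ngn3-low read 39.2 times the single WT level. Of 7 other genes of the PDGF and CXCL12 axes, 4 fell and 0 rose in the first step: Pdgfb (-4.24), Cxcr4 (-3.83), Pdgfc (-3.29) and Pdgfd. The receptor Cxcr4 stood at 12.97 CPM in bulk Ngn3-low and at 3.19 CPM in single WT Ngn3-low cells.

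Oat (chromosome 7, 132557475 to 132576398), ornithine aminotransferase of the mitochondrion, read 63.2 and 58.2 CPM in Ngn3-low libraries, 11.3 and 13.4 CPM in Ngn3-high and 76.0 and 80.1 CPM in Ins1-RFP+ libraries. The 3 groups did not overlap, with the highest level in nascent beta cells. Oat fell in the first step (log2 fold change -2.22, SE 0.132, edgeR adjusted p = 3.22e-06) and rose 6.72-fold in the second (2.75, SE 0.134, edgeR adjusted p = 5.15e-06), which held without either Ins1-RFP+ library (2.65 to 2.86 over all 6 omissions). It ended above Ngn3-low by 0.53 on the log2 scale (SE 0.124, edgeR adjusted p = 0.00554), a call lost without Ngn3-low library 2 (0.45). In single cells 33 of 49 WT Ngn3-low (67.3%) and 10 of 59 WT Ngn3-high cells (16.9%) held 10 CPM or more, and 49 of 69 and 12 of 44 deleted cells did. Of 7 tested genes of ornithine and proline metabolism, 3 fell in the first step and 2 fell in the second. Pycr1, which makes proline from the product of Oat, rose in the second step, from 3.86 ± 0.685 to 27.2 ± 8.79 CPM (log2 fold change 2.90), and Odc1, which uses ornithine for polyamines, fell (-1.57).

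Acot7 (chromosome 4, 152178100 to 152271855), which cleaves acyl-CoA, read 23.1 and 25.8 CPM in Ngn3-low libraries, 3.08 and 3.596 CPM in Ngn3-high and 1.51 and 2.68 CPM in Ins1-RFP+ libraries. The groups did not overlap and the order ran downward at each step. The first step was a fall (log2 fold change -2.79, SE 0.263, edgeR adjusted p = 3.95e-05) and the second did not pass (-0.60, SE 0.297, edgeR adjusted p = 0.126), although it did without Ins1-RFP+ library 2 (-1.03, edgeR adjusted p = 0.0281). In single cells 21 of 49 WT Ngn3-low (42.9%) and 6 of 59 WT Ngn3-high cells (10.2%) held 10 CPM or more, and 40 of 69 and 4 of 44 deleted cells did. Of 9 tested acyl-CoA thioesterase genes other than Acot7, 4 fell and 0 rose in the first step, among them Acot9 (-2.60) and Acot1 (-2.04). Acot1 fell again in the second step, to 3.17 ± 0.480 CPM (-2.36).

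**Figure D3:**
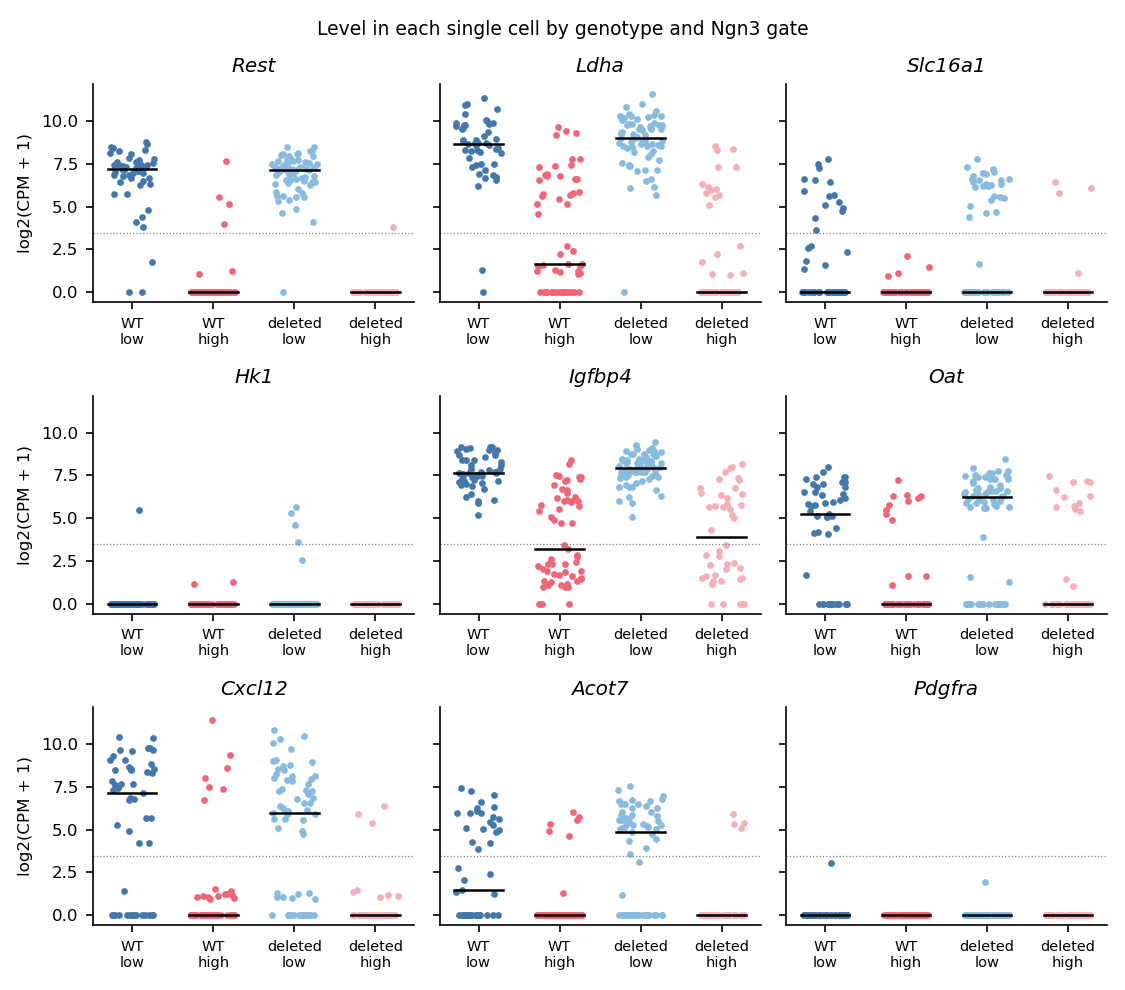
Level of each gene in each of 221 single cells, as log2(CPM + 1), by genotype and gate; points are cells, black lines group medians and the dotted line 10 CPM. Rest and Igfbp4 fill nearly every Ngn3-low cell, Slc16a1 and Acot7 are read in a part of them, and Hk1 and Pdgfra are at 0 in nearly all cells of every group.

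Set beside one another, bulk and single cells both put 7 genes clearly lower in Ngn3-high, while Hk1 and Pdgfra had few reads in any single cell. With a log2 ratio of at least 1 in size as the mark, 8 of 9 members were lower in Ngn3-high than in Ngn3-low cells in WT (background 12.6%) and 8 of 9 in deleted cells (12.8%), and 0 were higher (9.47% and 10.6%). Among genes at 5 CPM or more in the higher group, a filter added after seeing the data, the count was 7 in each genotype (19% and 18.7%). The 7 were Rest, Ldha, Slc16a1, Igfbp4, Oat, Cxcl12 and Acot7, each also lower by that mark within both title numbers that the gates of a genotype share. Their WT log2 ratios ran from -4.63 (Rest) to -1.84 (Cxcl12). Igfbp4 was lower by 2.29 on the log2 scale in WT cells and fell by 3.68 in bulk.

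**Figure D4:**
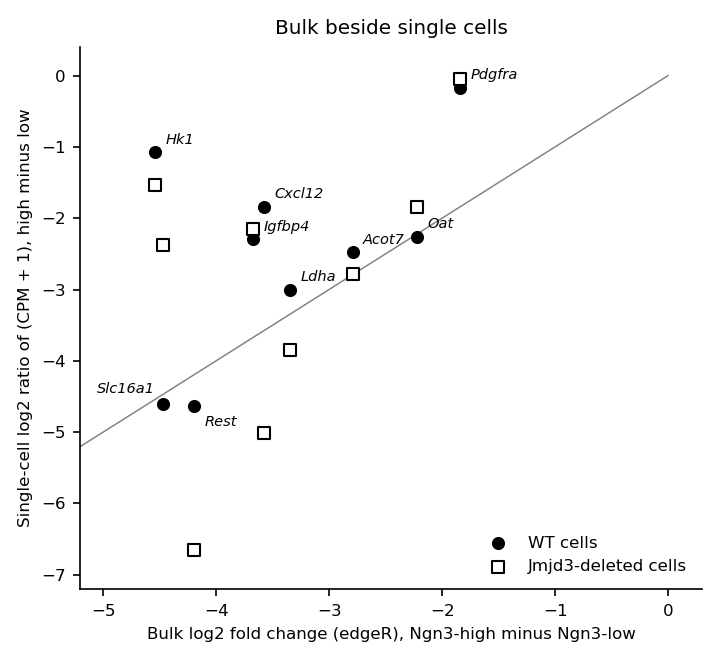
Each gene's bulk log2 fold change (horizontal, edgeR) against its single-cell log2 ratio of CPM with 1 CPM added (vertical), Ngn3-high minus Ngn3-low, for WT (filled) and Jmjd3-deleted cells (open); the grey line marks equal values. Points lie on both sides of the line, and all genes but Hk1 and Pdgfra lie below -1.8 on the vertical axis.

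The genes that differ between bulk and single cells did so beside markers of other cell types. All 11 macrophage and white blood cell genes and all 10 endothelial genes fell in the first bulk step, the latter from 449 to 497 CPM summed to 9.62 to 15.2 CPM, while 1 of 10 tested mesenchyme genes (Fn1) fell. In single WT Ngn3-low cells the macrophage list summed to 8.72 CPM, and the epithelial gene Epcam was at 10 CPM or more in every cell. Ptprc was at 10 CPM or more in 0 of 49 cells, but C1qa was in 5, Csf1r in 2 and the mesenchyme gene Col1a1 in 2. Cdh5 had no read in any group. The endothelial list summed to 44.9 CPM, of which Egfl7 gave 41.01 CPM, and the mesenchyme list to 185 CPM, of which Fn1 gave 178 CPM. In the bulk Ins1-RFP+ libraries the mesenchyme list summed to 362 and 895 CPM, in the same order as Pdgfra. The part of these cells in the bulk values of Hk1 and Pdgfra was not tested. For the other 7 genes the ratio of bulk to single-cell level in WT Ngn3-low cells ran from 0.667 (Ldha) to 1.68 (Igfbp4). It was 953 for the macrophage receptor Csf1r and 811.5 for Ptprc. For the epithelial genes Epcam and Sox9 it was 0.442 and 0.244, below that of all 7. The part of other cell types in the bulk values of these 7 genes was not tested either.

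Within the Ngn3-low gate the members did not all vary together. Cells were split at 10 CPM of Neurog3, the factor that starts the endocrine program, into 27 cells at or above it and 22 under it in WT, and 34 and 35 in deleted pancreas. Cxcl12 was higher in the cells with Neurog3, at 398 against 156 CPM in WT and at 356 against 36.1 CPM in deleted cells. Ldha was lower in them, at 369 against 842 CPM in WT and at 463 against 893 CPM in deleted cells. Slc16a1 went with Ldha, at 14.7 against 42.1 CPM in WT and at 9.61 against 59.3 CPM in deleted cells. Rest stood at 166 against 148 CPM in WT and at 173 against 123 CPM in deleted cells. Within title numbers that hold both kinds of cell, Cxcl12 was higher with Neurog3 in 5 of 5 in WT and 3 of 3 in deleted cells, Slc16a1 was lower in 5 of 5 and 3 of 3, and Ldha in 4 of 5 and 3 of 3. Rest was higher with Neurog3 in 2 of 5 and 3 of 3. WT title numbers 3 and 5 each held only 2 cells under 10 CPM of Neurog3. In WT title number 1 the sides were nearly level, at 485 against 478 CPM for Cxcl12 and 427 CPM on both for Ldha. The tip and acinar list moved with this split, at 249.9 CPM with and 3442 CPM without Neurog3 in WT, and at 339 and 3375 CPM in deleted cells, and its part in the result was not tested. Across cells Spearman's rho of Ldha with Slc16a1 was 0.39 over 49 WT and 0.38 over 69 deleted cells, and that of Ldha with Cxcl12 was -0.40 and -0.63. These are descriptions of cells that share libraries and a scale.

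Within the Ngn3-high gate, Cxcl12, Igfbp4, Ldha and Acot7 stood higher in both genotypes in the few cells with little Neurod1. In WT, 8 of 59 cells held under 10 CPM of Neurod1. Cxcl12 stood at 609 CPM in them and at 2.88 CPM in the other 51, with 6 of 8 and 1 of 51 cells at 10 CPM or more. Without the cell that held most Rest reads, a check added after seeing the data, Cxcl12 stood at 233 CPM in the other 7 cells, Igfbp4 at 166, Ldha at 242 and Acot7 at 24.8 CPM. Igfbp4 stood at 150.2 against 33.5 CPM (8 of 8 and 20 of 51 cells), and Ldha at 223 against 46.4 CPM (7 of 8 and 18 of 51 cells). Acot7 stood at 27.97 against 1.01 CPM (5 of 8 and 1 of 51 cells). Among deleted cells, 6 of 44 were under 10 CPM of Neurod1, with Cxcl12 at 34.5 against 0.216 CPM, Igfbp4 at 155 against 46.3 CPM, Ldha at 135 against 32.3 CPM and Acot7 at 23.1 against 1.22 CPM. Ldha, Igfbp4 and Cxcl12 were higher under the split in 3 of 3 title numbers in each genotype, and Acot7 in 3 of 3 in WT and 2 of 3 in deleted cells. Those title numbers held only 5, 2 and 1 cells under the split in WT and 3, 2 and 1 in deleted cells. Rest stood at 29.5 against 1.83 CPM in WT, but that 1 cell held every Rest read under the split: the other 7 cells had none, and Rest was higher under the split in 1 of 3 title numbers. In deleted cells Rest stood at 3.36 CPM against no read, from 1 cell. Slc16a1 stood at 29.8 against 2.16 CPM in deleted cells, higher under the split in 2 of 3 title numbers, and at 0 against 0.132 CPM in WT. Oat did not follow, at 6.12 against 12.8 CPM in WT and at 21.7 against 22.8 CPM in deleted cells. Sox9 moved with this split, at 168 against 69.7 CPM in WT and at 235 against 98.2 CPM in deleted cells, and its part in the result was not tested.

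Counted per cell, the set thinned out between the gates. A WT Ngn3-low cell held a median of 5 of the 9 genes at 10 CPM or more (range 3 to 7) and a WT Ngn3-high cell a median of 1 (0 to 5), with 16 of 59 cells holding none. In deleted cells the medians were 6 (3 to 7) and 1 (0 to 6), with 14 of 44 Ngn3-high cells holding none.

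**Figure D5:**
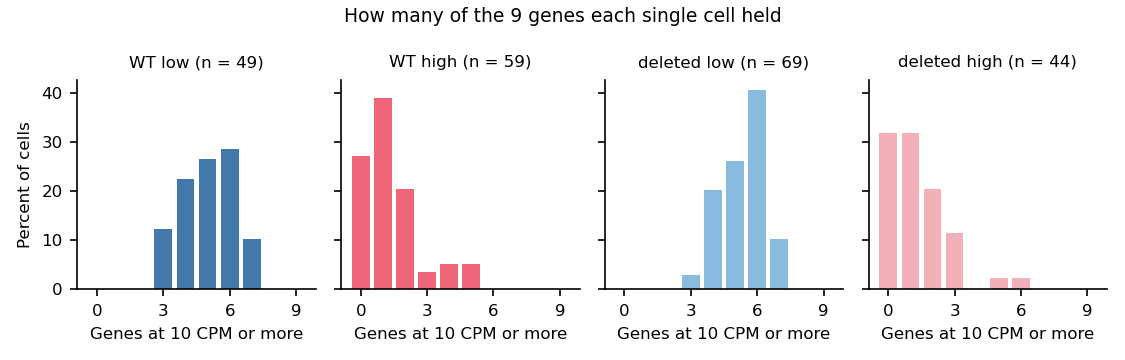
Percent of cells (vertical) by the number of the 9 genes at 10 CPM or more (horizontal), for each genotype and gate. Ngn3-low cells hold 3 to 7 of the genes in both genotypes, and most Ngn3-high cells hold 0 to 2.

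Deletion of Jmjd3 was compared with WT within each gate, with each group again taken as 1 sample. Among Ngn3-low cells 0 members differed by a log2 ratio of at least 1 in size (background 4.94%; 2.79% lower and 2.16% higher), and 0 among genes at 5 CPM or more (4.36%). The ratios, deleted minus WT, ran from -0.63 (Cxcl12) to 0.45 (Oat), and that of Rest was -0.11 (counting interval -0.18 to -0.04). Among Ngn3-high cells 3 differed (background 6.92%, or 5.72% among genes at 5 CPM or more, where the same count was 3). Cxcl12 (-3.81) and Rest (-2.14) were lower in deleted cells (background 3.37%), and Slc16a1 (2.65) was higher (3.55%). Without the WT cell that held most Rest and Cxcl12 reads the ratio of Rest was -0.84 and that of Cxcl12 -2.34. Within the 3 title numbers shared by the Ngn3-high groups, Cxcl12 was lower in 3 of 3 (-5.14 to -1.64), Rest was lower in 2 and higher in 1 (-3.29 to 1.34), and Slc16a1 was higher in 2 (-0.17 to 3.83). The Slc16a1 ratio rests on 193 reads in 4 deleted cells against 5 reads in WT.

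Other genes reported as repressed in beta cells mostly fell in the first step. Of 22 tested, 20 fell and 0 rose, with a median log2 fold change of -2.58 beside -0.01 for all genes, led by the antibody receptor gene Fcgrt (206 ± 21.9 to 1.04 ± 0.300 CPM, -7.57), Arhgdib (-7.50) and the transcription factor Maf (387 ± 2.23 to 3.08 ± 0.683 CPM, -6.87). Single WT Ngn3-low cells held 5.23, 2.57 and 2.38 CPM of these 3 genes, far below bulk. The list as a whole was also lower in single cells. Of 18 of its genes at 5 CPM or more in the higher WT group, 15 were at least 2-fold lower in Ngn3-high cells and 1 was higher (median log2 ratio -2.28, beside -0.05 for all such genes). In deleted cells 13 of 16 were lower and 1 was higher (median -1.99, beside -0.03). In the second step 10 rose and 7 fell, led by Itih5 (4.53), Fcgrt (2.50) and Mylk (2.37). Endothelial markers (10 of 10), macrophage markers (10 of 11) and mesenchyme markers (7 of 10) rose in the same step, and their part in the result was not tested.

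The genes with the most similar pattern over the 6 bulk libraries were found by Euclidean distance of centred log2(CPM + 1) among 11438 genes. For Rest they were Arhgap9 (0.42), B2m (0.51) and Plcb2 (0.54), and for Ldha Sntb1 (0.77), Dhrs3 (0.80) and Galk1 (0.93). For Slc16a1 they were Rasa3 (0.27), Vnn1 (0.33) and Parvg (0.37), and for Hk1 Dennd2c (0.30), Gp49a (0.32) and Epsti1 (0.32). Igfbp4 was nearest to Ctsc (0.33), Zfp36l1 (0.52) and Spon1 (0.65), and Cxcl12 to Samsn1 (0.07), Lpcat2 (0.18) and Has3 (0.21). Pdgfra was nearest to the matrix genes Col5a1 (0.67) and Vcan (0.73) and to Itm2a (0.74). Oat was nearest to Isoc1, Slc38a4 and Hivep2 (0.35 each), and Acot7 to Heph (0.19), Fermt1 (0.22) and Smarcd3 (0.22). A like bulk pattern did not mean the same cells: Samsn1, nearest to Cxcl12, had no read in single WT Ngn3-low cells and Plcb2, near Rest, stood at 0.0309 CPM, while Galk1, near Ldha, stood at 138 CPM and Slc38a4, near Oat, at 424 CPM.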

How the data were processed

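RNA was measured in 6 bulk libraries of sorted cells and in 221 single cells, made by Smart-seq2 per the labels' protocols; 31 chromatin samples were not used here. The deposited tables hold read counts per gene, made by the authors, and RPKM, which the authors gave per cell and as pooled values per bulk group. HTSeq 0.6.0, DESeq 1.20.0, TopHat2 2.1.0 and Bowtie2 were used with build mm10, per the submitters' processing notes. How strand was treated in counting is not stated, nor which annotation was used, and reads of antisense partners cannot be told apart. Of 40916 entries, 92 are ERCC spike-ins, which were left out of totals, and 40824 are genes.

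CPM was computed from the counts. Bulk counts were filtered with filterByExpr, scaled by TMM and fitted over all 6 libraries with edgeR 4.0.16 (R 4.3.3), with Benjamini-Hochberg adjusted p under 0.05 over 15684 genes; the script was tested on simulated data. Fitted log2 fold changes come from this model. Single cells needed 100000 reads, which all 221 had; counts were summed per group and log2 ratios taken with 1 CPM added (Python 3.11.15, pandas 2.3.3, scipy 1.17.1). Intervals are 95%, and Smart-seq2 reads carry no molecular identifiers. Alternatives covered scaling, filter, DESeq2 1.42.0, fits of 2 groups, a replicate block, left-out libraries and title numbers, added CPM, cell weighting, read minimum and share threshold.

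All 9 genes are named, with up to 3 genes of each list that passed at 5 CPM or more with the largest change per bulk comparison, and the 3 nearest genes per member. Ldhb, Hk2, Bsg, Pdgfd, Mpc1 and others outside this rule were named after their values were seen. The members and lists were chosen with earlier results of these data known. Promoter sequences and coordinates are RefSeq's. Some results of the listed genes are not reported here.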

Additional observations from a re-analysis of the deposited data

How the results depend on the processing

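From Ngn3-low to Ngn3-high the count of 9 lower members was 8 to 9 over left-out libraries. In the step to Ins1-RFP+ cells the count of higher members ranged from 1 to 6 and that of lower members from 0 to 3 over left-out libraries, and over the whole span the count of higher members ranged from 0 to 2. Between genotypes the count of differing members ranged from 0 to 1 in Ngn3-low and from 3 to 5 in Ngn3-high cells over left-out title numbers, and the mean of the authors' RPKM gave 1 in Ngn3-high. Changes of sign came from left-out libraries or title numbers. For Ins1-RFP+ minus Ngn3-high, Rest ranged from -0.49 (without Ins1-RFP+ library 2) to 0.13 (without Ngn3-high library 2) and was 0.11 without Ins1-RFP+ library 1, Igfbp4 ranged from -1.61 (without Ins1-RFP+ library 2) to 0.083 (without library 1), and Ldha from -1.02 (without library 2) to 1.29 (without library 1). For Ins1-RFP+ minus Ngn3-low, Pdgfra ranged from -0.78 (without library 2) to 0.98 (without library 1). The single-cell ratio of Hk1 ranged from -1.39 to 0.079 in WT and from -1.86 to 0 in deleted cells. Among all single-cell log2 ratios under alternatives, 264 stayed the same, 148 moved and 2 changed sign or reached 0. Among shares of cells 57 stayed the same and 15 moved. The causes were not tested. Among bulk fold changes under alternatives, 330 kept direction and side of the threshold, 12 lost and 4 gained a call, and 5 changed sign. Total-count scaling moved the median of all genes for Ins1-RFP+ minus Ngn3-low from -0.08 to -0.24, and no member changed call under it. The planned removal of cells with 100 CPM or more of other types' markers and under 10 CPM of Epcam took out 0 cells and tests nothing, since 1 cell of 221 was under that level of Epcam. The marker sum alone, taken without Fn1 and Egfl7, was reached by 31 of 49 WT and 52 of 69 deleted Ngn3-low cells. Most of that sum was 1 gene, Erbb3 of the neural crest and glia list. Erbb3 gave 111 of that list's 125 CPM in WT and 124 of its 140 CPM in deleted Ngn3-low cells.

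Same-numbered bulk libraries did not deviate together (correlations 0.067, 0.030 and 0.093). The labels do not say what the number means, and these values cannot tell whether such libraries share a litter or sort. With the replicate number as a block, 9 members were lower in the first step, 5 higher in the second, and 7 lower and 1 higher over the span, and no member changed call. The block gave Rest -4.23 in the first step. Low counts limit Hk1 and Pdgfra in single cells.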
